A study of Caenorhabditis elegans with 20 samples.

Results

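Glutathione S-transferases are enzymes that join the tripeptide glutathione to reactive or foreign compounds. Their genes were followed here in RNA-seq of C. elegans larvae. A row of the expression table was taken as a member when its sequence name carries, in the reference gene table, a symbol that starts with gst-, gstk- or gsto-. No measured value entered this rule, though it was set with earlier results of these data known. The rule found 36 of the 15568 genes of the table, namely 34 gst- genes, gstk-1 of the kappa class and gsto-2 of the omega class. The reference holds 49 such genes, and the other 13 were not analysed here (gst-9, gst-12, gst-14, gst-15, gst-19, gst-24, gst-31, gst-34, gst-38, gst-41, gstk-2, gsto-1 and gsto-3). Of those 13, 9 stand on the held part of the study's list of genes that oscillate in larval development, which the study left out of its table.

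The libraries came from whole L3 larvae of mixed sex, grown at 20°C in liquid culture, with 2 libraries for each of 3 genotypes. N2 is the wild-type strain. Strain JA1507 carries lin-35(n745), a mutation in the gene for LIN-35, the Rb relative of the DREAM complex. Larvae homozygous for htz-1(ok3099), a deletion in the H2A.Z gene, came from a strain named VC2490 in the labels. The study's methods give another strain number with the same allele and balancer. These htz-1 larvae were picked by a worm sorter as the non-GFP offspring of mothers that carry the balancer nT1[qIs51], so maternal HTZ-1 may have been present. Sorting was used for htz-1 alone, whereas N2 and lin-35 were cleaned on sucrose gradients, so that genotype and handling cannot be told apart. No label states that the 2 libraries of a group are separate cultures, so p-values may reflect technical spread only. The series compared the mutants to ask which genes need LIN-35 and H2A.Z for their normal expression.

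In C. elegans the cytosolic transferases form a large family, many of whose genes lie side by side on the chromosomes. They act in the second phase of detoxification, after oxidation and before export of the conjugate, and many are made in the intestine. The transcription factor SKN-1, relative of mammalian Nrf2, switches on part of the family under oxidative and chemical stress, and gst-4 is the customary reporter of that response.

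RPKM, in which reads are divided by gene length and by depth, allowed levels to be compared between genes. Depth was 13604791 to 18301926 reads per library, of which 73.9% to 77.2% fell in the listed genes. lin-35 RNA stood at 12.1 and 11.1 RPKM in N2, 12.8 and 13.3 for lin-35 and 13.5 and 11.8 for htz-1, so its level does not check the lin-35 label. htz-1 RNA stood at 78.6 and 81.3 RPKM in N2, 137.9 and 155.0 for lin-35, and 65.6 and 27.8 for htz-1. It differed by less than the test requires between htz-1 and N2 (log2 fold change -0.90, adjusted p = 0.0762), with the first htz-1 library near N2. Which part of the gene those reads cover was not tested. Marker lists differed between genotypes. Summed over the 4 of 6 intestinal markers in the table, scaled RPKM was 970.1 and 844.0 in N2, 523.5 and 474.9 for lin-35 and 640.3 and 545.7 for htz-1. Most of this sum was act-5, an intestinal actin, which fell in both mutants (-0.99 for lin-35 and -0.63 for htz-1), as did the peptide transporter gene pept-1 (-0.92 and -0.98). The transcription factor gene elt-2 and the esterase gene ges-1 rose in lin-35 (0.65 and 0.52, adjusted p = 0.0332 and 0.0127) and changed by 0.50 and 0.14 in htz-1 without passing the test (adjusted p = 0.063 and 0.365). The 5 germline markers summed to 226.5 and 252.5 in N2, 635.0 and 705.2 for lin-35 and 253.3 and 317.0 for htz-1. In lin-35, pgl-3, pgl-1 and glh-1 rose (4.17, 1.81 and 0.71), whereas glh-2 (0.40, adjusted p = 0.171) and deps-1 (-0.33, adjusted p = 0.275) did not pass. Body wall muscle (5 of 5 markers) ran from 1509 to 1816 in lin-35 and from 2349 to 2597 in the other libraries. Of these, unc-54, unc-15 and pat-10 fell in lin-35 (-0.73, -0.49 and -0.41), whereas myo-3 and hlh-1 did not pass (adjusted p = 0.0609 and 0.714). Hypodermis (2 of 5) ran from 24.5 in N2 to 56.1 in htz-1, and neurons (5 of 5) from 287.1 to 312.4 in all 6. The hypodermal marker lin-26 rose in lin-35 and htz-1 (0.67 and 1.23), whereas elt-1 did not pass in either (-0.22 and -0.33). Among the neuronal markers snb-1 rose in both mutants, rab-3 fell in lin-35, and unc-64 and ric-4 fell in htz-1. The single pharynx marker measured ran from 16.9 to 24.4 and adult yolk (2 of 6) from 0.556 to 1.204. No measured marker of these lists was at 0 in all libraries. In whole larvae, fewer cells of a type and less RNA per cell cannot be told apart, and the part of these shifts in the values below was not tested.

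A few members made up much of the family's RNA in wild type, where gst-1, gst-7 and gst-10 held 38.4% and 41.4% of the summed RPKM of all members. By mean RPKM over the 2 N2 libraries, 7 members lay above 50, 9 between 10 and 50, 13 between 1 and 10 and 7 under 1. gst-1, placed in the pi class, led with 179.4 ± 10.2 RPKM (SD, n = 2). gst-7 followed at 126.8 ± 14.8 and gst-10, an enzyme that conjugates the lipid peroxidation product 4-hydroxynonenal, at 122.0 ± 4.74, and the N2 libraries of these neighbours overlapped. gst-36 (103.5 ± 6.04) and gst-26 (88.2 ± 13.0) came next, each with both libraries apart from the neighbour below. gst-6 (70.3 ± 8.05) and gst-27 (67.6 ± 14.9) overlapped. gstk-1, whose class is found in mitochondria and peroxisomes of mammals, stood at 48.1 ± 3.97. gst-42, relative of the maleylacetoacetate isomerase of tyrosine breakdown, stood at 36.5 ± 1.39 and overlapped with gst-13 at 35.3 ± 2.58. gst-4 was far lower, at 22.5 ± 3.14, the 15th and 14th highest of the 36 members in the N2 libraries.

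All members together summed to 1097 and 1049 RPKM in N2, 1038 and 892.6 for lin-35 and 1355 and 1291 for htz-1. Both htz-1 sums lay above both N2 sums, and the lin-35 sums lay below both. As a share of the reads in listed genes the family took 0.119% and 0.113% in N2, 0.115% and 0.0989% for lin-35 and 0.149% and 0.145% for htz-1. Much of the larger htz-1 sum sat in gst-4 and gst-10. Without these 2 genes the sums were 958.4 and 899.2 in N2, 888.4 and 791.7 for lin-35 and 1019 and 899.0 for htz-1, so that the N2 and htz-1 sums overlapped. The share of the family sum held by gst-4 was 1.85% and 2.35% in N2, 1.48% and 1.74% for lin-35 and 6.45% and 8.50% for htz-1. In both htz-1 libraries gst-4 ranked 4th of the 36 members.

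Tests between genotypes used log2(RPKM + 0.5) after scaling of each library, in limma with Benjamini-Hochberg adjustment over 9679 genes of mean RPKM of at least 1, and fold changes are on that scale, which understates the change of low genes. Of the 36 members 30 passed this filter, and a member is said to rise or fall where its adjusted p is under 0.05. RPKM values are given as deposited. Scaling lowers lin-35 against the other libraries, since without it the median of all genes in lin-35 against N2 was 0.15 on the log2 scale rather than -0.01.

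Loss of htz-1 was accompanied by higher RNA of 10 members and lower RNA of 4, out of 30 tested. Of all tested genes, 15.2% rose and 16.5% fell in this comparison, against 33.3% and 13.3% of the members. The median log2 fold change of the members was 0.24 against -0.0046 over all tested genes, and members ran from -0.87 for gst-36 to 2.10 for gst-4. The other 16 did not pass the test. With the study's own thresholds (adjusted p under 0.001, fold above 1.5, RPKM above 1) gst-4 rose and gst-36 fell, against 0.765% and 1.01% of all genes. The study set these thresholds for DESeq2. Here they were applied to the limma values, with mean RPKM above 1 in both genotypes, so the counts are not those of the study. The number that rose was 6 without N2 replicate 2 or without htz-1 replicate 1, and the number that fell was 1 without either N2 library or without htz-1 replicate 2. In each of these settings the calls over all tested genes, in both directions, were fewer too. Handling by sorter goes along with the htz-1 libraries, and of the 4 intestinal markers pept-1 and act-5 fell there while elt-2 and ges-1 did not pass.

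gst-4, the SKN-1 reporter gene, had the largest rise. It stood at 20.3 and 24.7 RPKM in the N2 libraries, 15.4 and 15.5 in those of lin-35, and 87.4 and 109.7 in those of htz-1. Both htz-1 libraries lay far above the other 4, and the 2 lin-35 libraries lay below all others. The log2 fold change in htz-1 against N2 was 2.10 ± 0.16 (SE), adjusted p = 0.000472, a 4.28-fold difference, and it ranged from 1.92 to 2.29 over the alternatives tried. gst-35, the outermost gene of a chromosome II run described below, stood at 3.65 and 3.12 RPKM in the N2 libraries, 6.66 and 4.23 in those of lin-35, and 14.0 and 17.1 in those of htz-1. Again both htz-1 libraries were above the rest by a wide margin, with lin-35 between them and N2. The rise in htz-1 was 2.04 ± 0.22 (SE), adjusted p = 0.00118.

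Among the members abundant in N2, gst-10 and gst-7 rose. gst-10 stood at 118.6 and 125 RPKM in the N2 libraries, 135 and 85.4 in those of lin-35, and 248 and 282 in those of htz-1, which made it the most abundant member in both htz-1 libraries, while the lin-35 libraries fell on either side of N2. Its log2 fold change in htz-1 was 1.11 ± 0.19 (SE), adjusted p = 0.00576. gst-7 stood at 116 and 137 RPKM in the N2 libraries, 143 and 143 in those of lin-35, and 216 and 191 in those of htz-1. The htz-1 libraries lay above all others, at a log2 fold change of 0.67 ± 0.11 (SE), adjusted p = 0.00453. gst-13 stood at 33.4 and 37.1 RPKM in the N2 libraries, 33.5 and 29.9 in those of lin-35, and 66.8 and 75.9 in those of htz-1, with the 2 htz-1 libraries apart from 4 that lay close together. It rose by 1.00 ± 0.12 (SE), adjusted p = 0.00153. gst-5, which also acts on 4-hydroxynonenal, stood at 29.3 and 25.5 RPKM in the N2 libraries, 32.6 and 26.9 in those of lin-35, and 53.7 and 41.9 in those of htz-1. The htz-1 libraries were above the rest and the N2 and lin-35 libraries mixed, with a log2 fold change of 0.78 ± 0.14 (SE), adjusted p = 0.00689. gst-5 overlaps nos-1 in the reference, but nos-1 itself was listed at only 0.820 to 1.94 RPKM. Without the second N2 library the adjusted p of gst-5 was 0.0533, whereas the calls of gst-4, gst-35, gst-10, gst-13 and gst-7 held without any single library.

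The other 4 that rose are low genes. gst-33 stood at 2.31 and 2.71 RPKM in the N2 libraries, 2.92 and 3.95 in those of lin-35, and 7.04 and 4.51 in those of htz-1 (log2 fold change 1.03 ± 0.25 (SE), adjusted p = 0.02). gst-16 stood at 1.97 and 1.05 RPKM in the N2 libraries, 2.31 and 2.47 in those of lin-35, and 4.46 and 3.17 in those of htz-1. Both htz-1 libraries were above all others, and gst-16 rose by 1.13 ± 0.27 (SE), adjusted p = 0.0208. The omega class member gsto-2 stood at 0.823 and 0.855 RPKM in the N2 libraries, 1.59 and 1.07 in those of lin-35, and 1.79 and 2.22 in those of htz-1. It too was highest in both htz-1 libraries, with a rise of 0.90 ± 0.25 (SE), adjusted p = 0.0338. Both N2 libraries of gsto-2 lay under the mean RPKM filter, which it passed through the mutant libraries. Its call, 1 of the 10 rises of members in htz-1, was therefore not free of that selection. gst-29 stood at 5.26 and 10.5 RPKM in the N2 libraries, 9.24 and 9.29 in those of lin-35, and 16.2 and 15 in those of htz-1, and here the N2 libraries differed from each other by about as much as htz-1 did from N2. Its log2 fold change was 1.01 ± 0.28 (SE), adjusted p = 0.0317. These calls rest on single libraries: gst-16 was lost without N2 replicate 2 or htz-1 replicate 1, gst-29 without N2 replicate 1 or either htz-1 library, gst-33 without either N2 library or htz-1 replicate 1, and gsto-2 without any of the 4. Their adjusted p then reached 0.113, 0.106, 0.115 and 0.159, with log2 fold changes of at least 0.79, 0.53, 0.76 and 0.77.

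gst-36 had the largest fall in htz-1. It stood at 108 and 99.3 RPKM in the N2 libraries, 86.2 and 83.7 in those of lin-35, and 58.4 and 55.2 in those of htz-1, with the 3 genotypes apart in that order and no overlap. The log2 fold change was -0.87 ± 0.080 (SE), adjusted p = 0.000795, and the call held in every alternative. The scav-5 gene that overlaps gst-36 in the reference was not analysed here. The counting is not stated to use strand, and how reads in the overlap were assigned was not tested. gst-26 stood at 97.4 and 79.0 RPKM in the N2 libraries, 86.1 and 60.02 in those of lin-35, and 64.8 and 55.0 in those of htz-1. Its htz-1 libraries were below those of N2 and its lin-35 libraries spread across both, with a change in htz-1 of -0.56 ± 0.17 (SE), adjusted p = 0.0427. gst-6 stood at 76.0 and 64.6 RPKM in the N2 libraries, 52.5 and 43.0 in those of lin-35, and 54.1 and 43.7 in those of htz-1. The libraries of both mutants lay below those of N2, and the change in htz-1 was -0.53 ± 0.13 (SE), adjusted p = 0.0228. gst-43, a further relative of maleylacetoacetate isomerase, stood at 13.1 and 12.2 RPKM in the N2 libraries, 13.5 and 11.3 in those of lin-35, and 10.1 and 7.65 in those of htz-1. Both htz-1 libraries were the lowest, at a change of -0.51 ± 0.15 (SE), adjusted p = 0.0382. Each of the 3 calls was lost without single libraries, gst-26 without any of the 4, and gst-6 and gst-43 without either N2 library or without htz-1 replicate 2. The adjusted p reached 0.221 for gst-26, 0.145 for gst-6 and 0.178 for gst-43, with changes of -0.43, -0.40 and -0.34 or larger. With RPKM as deposited gst-26 and gst-43 also missed the threshold, so that 2 members rather than 4 fell.

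**Figure D1:**
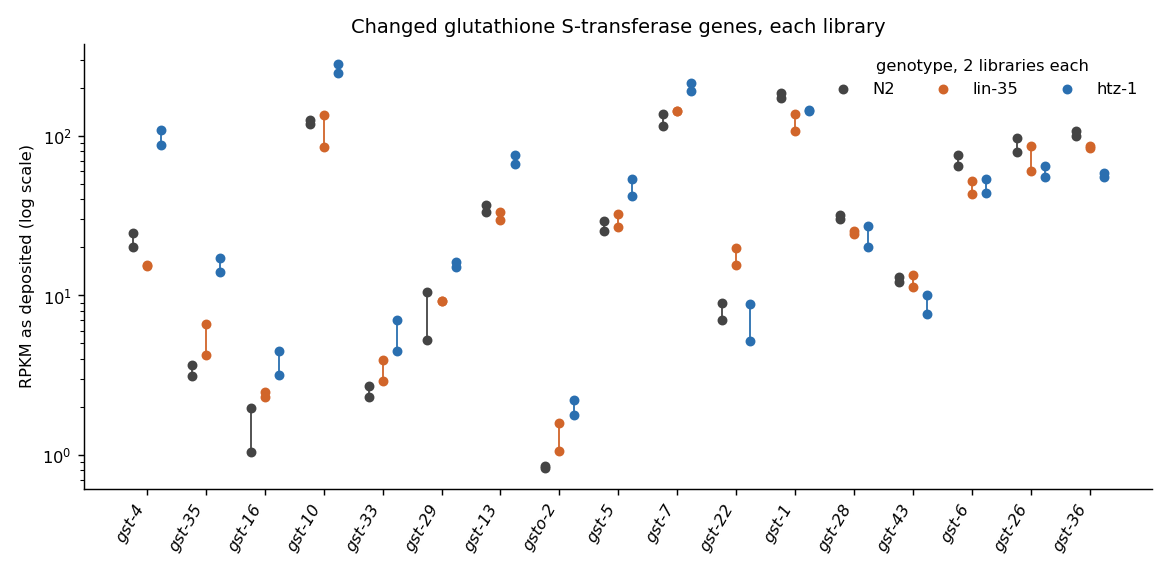
RPKM of each library as deposited (log axis) for the 17 members that rose or fell in htz-1 or lin-35 against N2, with 2 points per genotype joined by a line, ordered by the change in htz-1. gst-4, gst-35, gst-10 and gst-13 show both htz-1 points above all others, gst-36 shows both below, and gst-22 stands out by its lin-35 points at 19.9 and 15.4 RPKM.

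In lin-35 against N2, 1 of the 30 tested members rose and 5 fell, which is 3.33% and 16.7% of the members, against 12.1% and 11.6% of all tested genes. The median log2 fold change of the members was -0.16 against -0.01 over all tested genes, and members ran from -0.73 to 0.91. No member reached the study's thresholds on the limma values, which 1.99% and 0.992% of all genes reached upward and downward. Leaving out either N2 library or lin-35 replicate 1 left 0 that rose, and without lin-35 replicate 2 there were 2. The number that fell was 1 without N2 replicate 1 and 3 without N2 replicate 2 or lin-35 replicate 2. Over all tested genes, calls in both directions were fewer in each of these settings. Beside these values, the lin-35 libraries had higher germline marker sums, with 3 of the 5 germline markers called higher. Of the 4 intestinal markers 2 rose and 2 fell. None of the 36 members is on the study's L3 list of genes with DREAM-bound promoters. That list, as matched here, holds 492 of the 15568 genes of the table, a share at which few or no members would be on it. This is more than the study counts as bound by all 8 DREAM subunits in L3, so the list may not be that set.

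gst-1, the leading member in N2, fell. It stood at 187 and 172 RPKM in the N2 libraries, 108 and 138 in those of lin-35, and 143 and 145 in those of htz-1, with both lin-35 libraries the lowest and those of htz-1 in between. The log2 fold change in lin-35 was -0.73 ± 0.14 (SE), adjusted p = 0.00876. gst-6, listed above, was lower in lin-35 as well as in htz-1, and its lin-35 change was -0.73 ± 0.13 (SE), adjusted p = 0.00779. gst-36 was intermediate in lin-35, at a change of -0.46 ± 0.080 (SE), adjusted p = 0.00646. All 3 calls were lost without N2 replicate 1, where the adjusted p of gst-1, gst-6 and gst-36 was 0.0607, 0.0612 and 0.0669 and their changes -0.69, -0.63 and -0.42.

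gst-4 fell in lin-35, opposite to its rise in htz-1. Its lin-35 libraries, at 15.4 and 15.5 RPKM, lay below both N2 libraries, and the log2 fold change was -0.70 ± 0.16 (SE), adjusted p = 0.0182. That call was lost without N2 replicate 2 or either lin-35 library, where the changes were -0.55, -0.67 and -0.73 and the adjusted p was at most 0.119. gst-28 stood at 32.2 and 30.3 RPKM in the N2 libraries, 24.3 and 25.4 in those of lin-35, and 27.1 and 20.2 in those of htz-1. It fell in lin-35 (-0.50 ± 0.14 (SE), adjusted p = 0.0383), and with a similar change in htz-1 it did not pass the test there (-0.42, adjusted p = 0.0567). gst-22 was the sole member to rise, standing at 9.01 and 7.06 RPKM in the N2 libraries, 19.9 and 15.4 in those of lin-35, and 8.83 and 5.19 in those of htz-1. Both lin-35 libraries lay above all others, and the log2 fold change was 0.91 ± 0.24 (SE), adjusted p = 0.0323. Its overlapping neighbour F21H7.12 stood at 1.57 and 1.30 RPKM in N2, 3.04 and 4.69 for lin-35 and 3.13 and 2.00 for htz-1. F21H7.12 rose in lin-35 as well (1.00, adjusted p = 0.04), and how reads in the overlap were assigned was not tested. Leaving out any one of the 4 libraries ended the calls of gst-28 and gst-22, with an adjusted p of up to 0.175 and 0.181 and log2 fold changes between -0.56 and -0.44 and between 0.75 and 1.06. With RPKM as deposited gst-28 and gst-36 missed the threshold (-0.32 and -0.28), leaving 3 members lower.

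**Figure D2:**
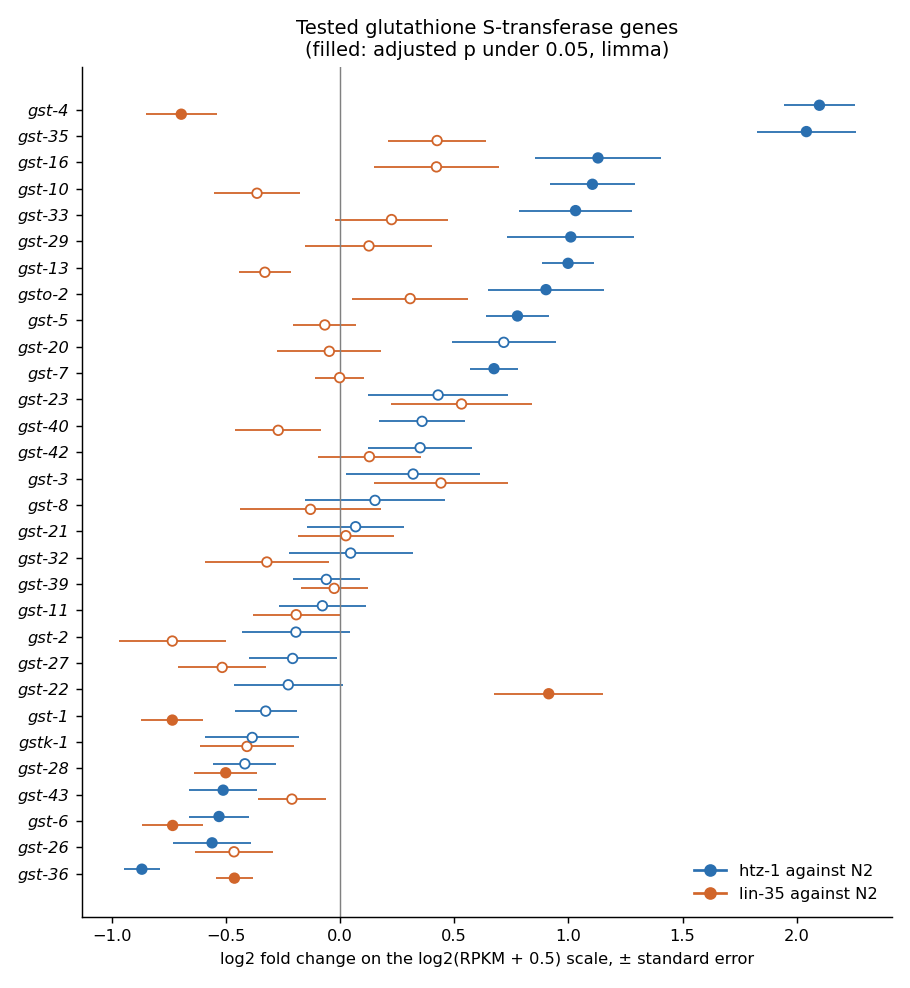
Log2 fold change on the log2(RPKM + 0.5) scale, with standard error, of the 30 tested members in htz-1 (blue) and lin-35 (orange) against the same 2 N2 libraries; filled points have an adjusted p under 0.05 in limma. In htz-1, 10 members are filled to the right of 0 and 4 to the left, and in lin-35 1 to the right and 5 to the left, with gst-4 on opposite sides.

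Since both mutants were set against the same N2 libraries, the mutants were also compared directly. In htz-1 against lin-35, 9 of the 30 members were higher and 2 lower, against 14.5% and 15.3% of all tested genes, with a median of 0.34 against -0.0002. gst-4 differed most, at 2.79 ± 0.16 (SE), adjusted p = 9.51e-05, a 6.94-fold difference between the mutants. gst-35 (1.62 ± 0.22 (SE), adjusted p = 0.00247), gst-10 (1.47 ± 0.19 (SE), adjusted p = 0.00202) and gst-13 (1.33 ± 0.12 (SE), adjusted p = 0.000395) followed. gst-5 and gst-7 were higher by 0.84 and 0.68 on the log2 scale (adjusted p = 0.00542 and 0.00457). These 6 held without any single library. gst-4 and gst-13 also passed the study's thresholds, which 0.651% of all genes passed upward and 1.93% downward. No member was lower by those thresholds. Without lin-35 replicate 1, 1 member was lower, and without htz-1 replicate 2, 0 were at an adjusted p under 0.05.

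gst-33, gst-20 and gst-40 were higher in htz-1 than in lin-35 by 0.81, 0.76 and 0.63 (adjusted p = 0.0474, 0.0435 and 0.0434). gst-20 stood at 27.98 and 28.7 RPKM in the N2 libraries, 31.1 and 31.0 in those of lin-35, and 63.2 and 35.2 in those of htz-1, where the first htz-1 library alone was far above the others. gst-40 stood at 3.48 and 3.47 RPKM in the N2 libraries, 2.75 and 3.64 in those of lin-35, and 4.88 and 4.37 in those of htz-1, and the collagen gene col-103 that overlaps it was not analysed here. All 3 calls were lost without single libraries (4 for gst-33, 5 each for gst-20 and gst-40), with an adjusted p of up to 0.195, 0.145 and 0.156. The lower members were gst-22, at -1.14 ± 0.24 (SE), adjusted p = 0.0134, and gst-36, at -0.41 ± 0.080 (SE), adjusted p = 0.0106. The gst-22 call was lost without lin-35 replicate 1 or htz-1 replicate 2 (up to 0.0728), and that of gst-36 without htz-1 replicate 2 (0.0529). For gst-6, lower in both mutants, the difference between them was 0.20 ± 0.13 (SE), adjusted p = 0.285, and for gst-1, lower in lin-35, it was 0.41 ± 0.14 (SE), adjusted p = 0.0611, so that neither was shown to differ between the mutants.

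By call, 17 members changed in at least 1 mutant and 13 in neither. gst-36 and gst-6 fell in both, gst-4 moved in opposite directions, 9 rose in htz-1 and did not pass in lin-35, gst-26 and gst-43 fell there, gst-1 and gst-28 fell in lin-35 and gst-22 rose there. Of the abundant members without a call, gst-27 stood at 78.1 and 57.1 RPKM in the N2 libraries, 64.2 and 43.4 in those of lin-35, and 60.7 and 55.6 in those of htz-1. gstk-1 stood at 50.9 and 45.3 RPKM in the N2 libraries, 46.2 and 36.1 in those of lin-35, and 46.8 and 29.0 in those of htz-1. gst-42 stood at 37.5 and 35.6 RPKM in the N2 libraries, 60.9 and 33.7 in those of lin-35, and 46.1 and 47.9 in those of htz-1. Their libraries overlapped between N2 and lin-35, and in gst-42 the first lin-35 library lay far above the second. The changes were -0.52, -0.41 and 0.13 in lin-35, and in htz-1 they were -0.21, -0.38 and 0.35, with adjusted p from 0.101 to 0.732. gst-20 came closest to a call in htz-1 against N2 (0.72, adjusted p = 0.0506). gst-2, gst-3, gst-8, gst-11, gst-21, gst-23, gst-32, gst-39 and gst-40 likewise passed in neither mutant, and their changes ran from -0.73 to 0.53 in lin-35 and from -0.19 to 0.43 in htz-1.

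Many members are chromosomal neighbours, and neighbours were not replicates of each other. Of the 36, 18 lie on chromosome II, 7 on V, 4 on IV, 3 on X and 2 each on I and III. Neighbours with at most 3 other protein-coding genes between them formed 4 runs, which hold 25 of the 49 reference members and 17 of the 36 analysed. In the first run of chromosome II, gst-6, gst-7 and gst-8 follow each other directly. gst-7 rose in htz-1 and gst-6 fell in both mutants, while gst-8 stood at 1.85 and 2.73 RPKM in the N2 libraries, 2.07 and 2.53 in those of lin-35, and 3.56 and 1.84 in those of htz-1 without a call. Their changes in htz-1 were 0.67, -0.53 and 0.15.

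In the long run of chromosome II from gst-26 to gst-35, 7 of 9 genes were analysed. The run opens with abundant genes, gst-26, gst-27 and gst-28, none of which rose in either mutant. Their htz-1 changes were -0.56, -0.21 and -0.42. The next gene, gst-29, rose in htz-1 (1.01). gst-39 stood at 21.5 and 22.8 RPKM in the N2 libraries, 28.3 and 21.5 in those of lin-35, and 23.8 and 19.2 in those of htz-1, with a htz-1 change of -0.06 and no call. gst-32 stood at 0.941 and 1.24 RPKM in the N2 libraries, 0.734 and 1.03 in those of lin-35, and 1.26 and 1.04 in those of htz-1, near the limit of the test, and changed by 0.05 in htz-1. gst-35 closes the run with its rise of 2.04. Reads that fit more than 1 of these related neighbours could be divided between them by alignment, and their sequences were not compared here.

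On chromosome IV, gst-3, gst-2 and gst-4 are direct neighbours. gst-3 stood at 5.22 and 6.33 RPKM in the N2 libraries, 13.1 and 6.21 in those of lin-35, and 7.56 and 7.13 in those of htz-1, with the first lin-35 library high. gst-2 stood at 1.74 and 2.31 RPKM in the N2 libraries, 1.32 and 1.00 in those of lin-35, and 1.75 and 1.68 in those of htz-1. gst-4 passed in both mutants and gst-3 and gst-2 in neither, and in htz-1 the changes were 0.32, -0.19 and 2.10 in chromosomal order. gst-2 was lower in lin-35 by a size like that of gst-4 but missed the threshold (-0.73 ± 0.23 (SE), adjusted p = 0.0634), and an antisense gene overlaps it in the reference. In the remaining run of chromosome II, 4 of 9 genes were analysed. gst-20 and gst-16 are described above, and gst-17 and gst-18, which overlap each other, were too low to test.

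**Figure D3:**
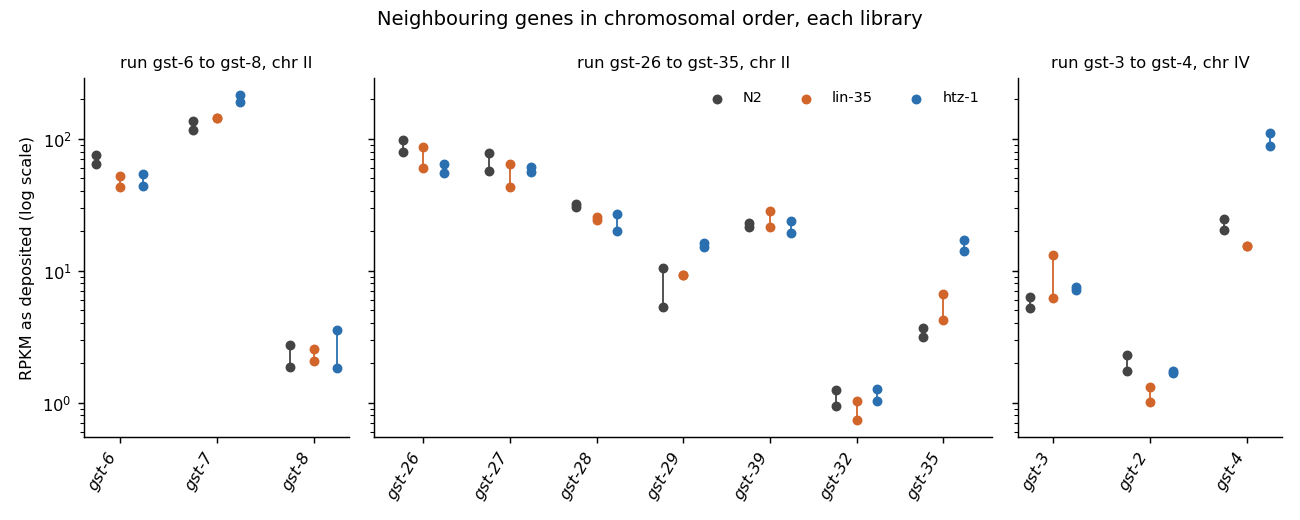
RPKM of each library as deposited (log axis) for neighbouring members in chromosomal order in 3 runs, 2 points per genotype joined by a line. Within the chromosome IV run both htz-1 libraries of gst-4 stand at 87.4 and 109.7 RPKM above N2, while gst-3 and gst-2 have no call, and in the long chromosome II run gst-29 and gst-35 are higher in htz-1 while gst-26 is lower.

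The other 6 members stayed under a mean of 1 RPKM and were not tested, so their reads are given. gst-44 had 1 and 1 reads in N2, 10 and 10 for lin-35 and 14 and 4 for htz-1. gst-18 had 11 and 4 reads in N2, 0 and 3 for lin-35 and 1 and 0 for htz-1, and its overlapping neighbour gst-17 had 7 and 2, 2 and 1, and 2 and 1. gst-44 was lowest and gst-18 highest in N2, at depths where a few reads make the difference. gst-25 had 3 and 0 reads in N2, 0 and 0 for lin-35 and 3 and 4 for htz-1, gst-30 had 1 and 0, 1 and 5, and 8 and 3, and gst-37 had 1 and 2, 0 and 1, and 0 and 0. These counts leave differences in the 6 genes untested at this depth.

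Genes of glutathione metabolism, detoxification and their regulation were set beside the family in 10 lists of 97 genes, 72 of which were tested. In lin-35 5 rose and 20 fell (median log2 fold change -0.14), and in htz-1 7 rose and 19 fell (-0.09), while of all tested genes 12.1% rose and 11.6% fell for lin-35, against 15.2% and 16.5% for htz-1. Without N2 replicate 1 the counts were 1 and 13 for lin-35 against 1 and 10 for htz-1, and without N2 replicate 2 they were 2 and 13, and 3 and 11. Without htz-1 replicate 2, 3 rose in htz-1, and with RPKM as deposited or with no filter 8 rose in lin-35. Calls over all tested genes were fewer too without either N2 library, and in htz-1 without htz-1 replicate 2. skn-1 stood at 31.5 and 35.3 RPKM in the N2 libraries, 37.3 and 52.7 in those of lin-35, and 43.7 and 39.9 in those of htz-1, and its changes of 0.23 in lin-35 (adjusted p = 0.41) and 0.31 in htz-1 (adjusted p = 0.217) missed the threshold. wdr-23, whose product targets SKN-1 for degradation, stood at 29.3 and 33.4 RPKM in the N2 libraries, 32.3 and 36.4 in those of lin-35, and 35.1 and 26.4 in those of htz-1 (adjusted p = 0.862 and 0.849). Of the 10 tested genes of this list, sek-1, a kinase of the p38 cascade, fell in lin-35 (-0.38, adjusted p = 0.0427), and 0 passed in htz-1. gcs-1, the rate-limiting enzyme of glutathione synthesis, was not analysed here. Of the other regulators of detoxification genes, 0 of 9 rose. nhr-8 fell in both mutants (-0.53 and -0.45), and hlh-30, the TFEB relative, fell in htz-1 (-0.86, adjusted p = 0.00285).

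Among the 6 tested genes that make and recycle glutathione, glutathione synthetase gss-1 and glutathione reductase gsr-1 passed in neither mutant, with changes of -0.38 and -0.07 for lin-35 and -0.18 and 0.27 for htz-1. The glutaredoxin glrx-5 fell in both (-0.73 and -0.39). Of 3 glutathione peroxidases tested, gpx-1 fell in both (-1.24 and -0.71), gpx-7 fell in lin-35 (-0.73), and gpx-4 rose in lin-35, at 1.29 and 1.56 RPKM in the N2 libraries, 10.2 and 6.14 in those of lin-35, and 1.53 and 0.760 in those of htz-1 (1.97 ± 0.31 (SE), adjusted p = 0.00429). Of 14 antioxidant genes of the thioredoxin, peroxiredoxin, superoxide dismutase and catalase kinds, sod-1, ctl-1, ctl-2 and ctl-3 fell in lin-35 and sod-3 rose there. sod-1 stood at 222 and 206 RPKM in the N2 libraries, 116 and 82.3 in those of lin-35, and 212 and 192 in those of htz-1 (-1.31 ± 0.14 (SE), adjusted p = 0.000865). ctl-2 changed by -1.12 in lin-35. ctl-1 and ctl-3 moved like gst-4, lower in lin-35 (-0.92 and -0.92) and higher in htz-1 (0.50 and 0.58), but they are closely related neighbours whose reads may be shared. trx-2 fell in htz-1 (-0.91), and sod-3, at 0.394 and 0.238 RPKM in the N2 libraries, 4.10 and 1.90 in those of lin-35, and 0.414 and 0.177 in those of htz-1, changed by 1.91 in lin-35. sod-3 passed the mean RPKM filter only through its lin-35 libraries. Its call, 1 of the 5 rises of the lists in lin-35, was therefore not free of that selection.

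The ABC transporters of the mrp family export glutathione conjugates. Of 6 tested, mrp-3 rose in htz-1 (0.83) and mrp-1, mrp-2 and mrp-7 fell (-0.76, -0.71 and -0.92), while in lin-35 mrp-7 rose (0.70) and mrp-1 fell (-0.62). mrp-7 stood at 11.8 and 12.1 RPKM in the N2 libraries, 21.3 and 23.5 in those of lin-35, and 6.18 and 6.10 in those of htz-1, with no overlap between any genotypes. Of 6 tested proteins that share the transferase fold without belonging to the family, 1 rose and 4 fell in lin-35 and 2 rose and 3 fell in htz-1. cdr-4 and cdr-2, cadmium-responsive genes, changed by -1.98 and -0.84 in htz-1 and -0.65 and -1.53 in lin-35, cdr-6 by -0.30 and -0.85, and the translation factor eef-1G fell in lin-35 (-0.41). The chloride channel relative exc-4 rose in both (0.46 and 0.59) and exl-1 in htz-1 (0.44).

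Cysteine and methionine metabolism supplies the cysteine of glutathione, and 12 of its genes were tested. cbs-1, a cystathionine beta-synthase, fell in both mutants and most in htz-1. It stood at 39.5 and 43.4 RPKM in the N2 libraries, 31.7 and 30.2 in those of lin-35, and 8.11 and 6.39 in those of htz-1, with htz-1 far below the rest (-2.45 ± 0.13 (SE), adjusted p = 0.000244) and lin-35 between (-0.59). The cystathionine lyase cth-1 fell in lin-35 (174 and 159 RPKM in N2 and 64.9 and 52.3 in lin-35, -1.68) and its paralog cth-2 in htz-1 (-1.15). ahcy-1, S-adenosylhomocysteine hydrolase, fell in both (-1.02 and -1.04), cysl-1 too (-0.40 and -0.79), and sams-1 in htz-1 (-0.77), whereas sams-4 rose in both (0.68 and 0.85) and metr-1 in htz-1 (0.37). In tyrosine breakdown, where the relative of gst-42 acts, hpd-1 fell in both (-1.08 and -0.68), fah-1 in lin-35 (-0.49) and pah-1 in htz-1 (-1.45), out of 4 tested. Of 2 glyoxalase genes tested, djr-1.1 passed in neither mutant and glod-4 fell in htz-1 (-0.39). Beside these falls, the intestinal markers pept-1 and act-5 fell in both mutants, whereas elt-2 and ges-1 rose in lin-35.

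**Figure D4:**
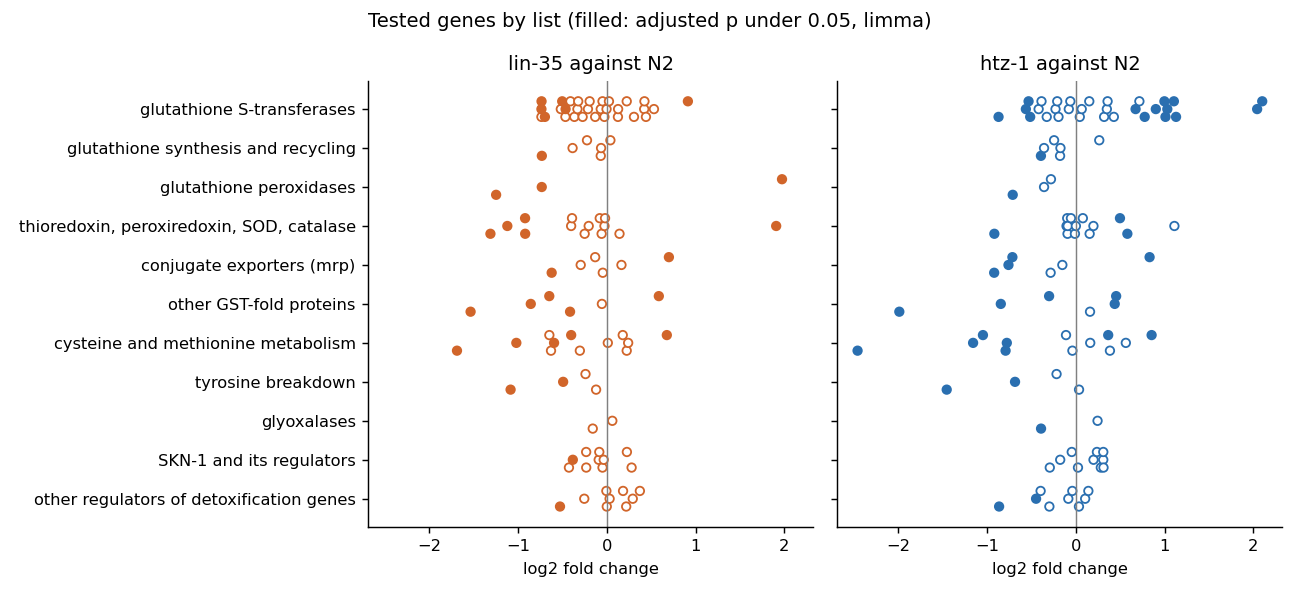
Log2 fold change of each tested gene of the family and of the 10 lists, in lin-35 (left) and htz-1 (right) against N2, where filled points have an adjusted p under 0.05 in limma. Of the 30 tested members, 10 are filled above 0 and 4 below in htz-1, and 1 above and 5 below in lin-35. The other 72 genes hold 7 above and 19 below in htz-1, and 5 above and 20 below in lin-35. Of all tested genes, 15.2% rose and 16.5% fell in htz-1, against 12.1% and 11.6% in lin-35.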

How the data were processed

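RNA-seq libraries of 3 genotypes of L3 larvae (6 of the 20 samples of the series) were analysed, and the 14 ChIP-seq and input samples were not analysed here. The authors aligned reads to ce10 with BWA and counted them with HTSeq in union mode on a lifted-over exon model, and they deposited RPKM per gene and library. The authors' log2 fold changes and their p-values from DESeq2, and the authors' mean RPKM, were deposited in the same table and were not used. Genes that the authors found to oscillate in larval development were left out by them. No other per-sample column was found.

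Symbols came from the WBcel235 gene table (15397 genes matched, 171 not). As that build is not the one the reads were aligned to, its coordinates served only to order neighbours and find overlaps. No sequences were analysed. Each library was scaled by the median of ratios (factors 0.949 to 1.111). limma 3.58.1 in R 4.3.3 with a variance trend was run on log2(RPKM + 0.5) of the 9679 genes whose mean RPKM reached 1, with all 3 genotypes fitted together (residual df 3, prior df 4.011). Two-sided p-values were adjusted over these genes by Benjamini-Hochberg at 0.05. A mean ± SD is over 2 libraries. Since RPKM moves in steps of 1 read within a gene, reads were recovered for 15568 of 15568 genes (100% of values whole within 0.002 reads) and used for limma-voom as an alternative. Other alternatives were RPKM as deposited, pseudocounts of 0.1 and 1, no filter, a replicate block, 2 genotypes only, the study's thresholds and each library left out, where the lone library of a genotype is assumed to vary like the others.

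Members and lists were chosen with earlier results of these data known. The rule for naming took every member that passed in a mutant against N2, the 10 most abundant tested members in N2 and gst-4. From each list it took up to 4 genes that passed per comparison by size of change. Some lists are described with more genes than this rule takes. Values of gst-2, gst-3, gst-8, gst-32 and gst-39 are given as well, as neighbours in the runs. gst-20 and gst-40 were added after their values were seen, as was htz-1 RNA per library.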

Additional observations from a re-analysis of the deposited data

How the results depend on the processing

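Over 14 alternatives, 31 calls of named members reversed in 0 cases, and 12 held in every setting but the study's thresholds. The study's thresholds, applied to the limma values, left 0 members higher and 0 lower in lin-35 and 1 higher and 1 lower in htz-1. In htz-1 against lin-35 they left 2 higher and 0 lower. With RPKM as deposited 3 members were lower in lin-35 and 2 in htz-1. That scaling moved the median of all genes to 0.15 (log2) in lin-35 against N2 and to -0.16 in htz-1 against lin-35, and calls over all genes in lin-35 from 1175 higher and 1125 lower to 1781 and 592, and in htz-1 against lin-35 from 1405 and 1484 to 815 and 2286. With each library left out, lin-35 had 0 to 2 members higher and 1 to 6 lower, htz-1 had 6 to 11 higher and 1 to 5 lower, and htz-1 against lin-35 had 6 to 9 higher and 0 to 2 lower. In either mutant against N2, calls over all tested genes were fewer too when an N2 library was left out. Why single calls changed was not tested.

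The values that turned sign had not passed the main test. With RPKM as deposited, lin-35 against N2 gave gst-20 0.13, gst-5 0.11 and gst-7 0.18, and htz-1 against lin-35 gave gst-28 -0.0847 and gstk-1 -0.15, while limma-voom gave 0.0014 for gst-7 in lin-35. With 1 library left out, lin-35 against N2 ranged from -0.35 to 0.59 for gst-29, -0.27 to 0.52 for gst-42 (adjusted p = 0.0225 at 0.52, without lin-35 replicate 2), -0.18 to 0.043 for gst-5 and -0.14 to 0.12 for gst-7. htz-1 against N2 ranged from -0.56 to 0.11 for gst-22 and from -0.43 to 0.0005 for gst-27. htz-1 against lin-35 ranged from -0.33 to 0.13 for gst-26, -0.0939 to 0.28 for gst-28, -0.17 to 0.62 for gst-42 (adjusted p = 0.0164 at 0.62, without lin-35 replicate 1) and -0.29 to 0.35 for gstk-1.

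Same-numbered libraries deviated together between N2 and lin-35 (correlation 0.318 over 9679 genes) but hardly between N2 and htz-1 (0.0992) or lin-35 and htz-1 (0.0162), and names of same-numbered N2 and lin-35 samples share a code whose meaning the labels do not give. With 2 pairs this could not settle a pairing, and none was assumed. With the replicate block 1 member was higher and 7 lower in lin-35, 11 and 4 in htz-1, and 9 and 2 in htz-1 against lin-35. gst-26 and gst-27 then fell in lin-35 (-0.46 and -0.52, adjusted p = 0.0153 and 0.0245), and gst-20 rose in htz-1 (0.72, adjusted p = 0.0463).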

Other observations

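The order of gst-4 and gst-1 within a library gives a value that needs no scaling between libraries. The ratio of gst-4 to gst-1 RPKM was 0.108 and 0.143 in the N2 libraries, 0.143 and 0.112 in those of lin-35, and 0.611 and 0.759 in those of htz-1. N2 and lin-35 overlapped in this ratio, since both genes were lower in lin-35, while both htz-1 libraries stood above the other 4. The htz-1 ratio holds more than the rise of gst-4, because gst-1 was lower there too. gst-1 stood at 143.1 and 144.5 RPKM in htz-1 against 186.7 and 172.2 in N2. That change did not pass the limma test (-0.33, adjusted p = 0.111).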
